A study of Mus musculus with 7 samples.

Results

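The genes described here were 10 tetraspanins that microglia express: Cd9, Cd63, Cd81, Cd82, Cd53, Cd37, Cd151, Tspan3, Tspan4 and Tspan14. They were taken by name from the 55341 gene names in the deposited counts. All 10 passed the filter on low counts and were among the 15257 genes tested. RNA had been sequenced from CD11b+CD45low microglia, the resident macrophages of the brain, of female 5xFAD mice on a C57BL/6 background. These mice carry mutant human APP and presenilin transgenes driven in neurons by the Thy1 promoter, and they deposit Aβ. All animals were 14 weeks old and had received wild-type (WT) embryonic cortical cells 4 weeks earlier, so that the recipients of both groups were transgenic and grafted. One group held 3 libraries of microglia sorted from inside the graft and the other held 4 libraries of microglia from pieces of cortex near it, called outside the graft below. The comparison asks how microglia that had entered WT tissue differ from those that remained in the transgenic cortex around it. The labels do not say that the libraries came from separate animals, so p-values measure the spread between these libraries, which may be technical.

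Tetraspanins are small proteins that pass through the membrane several times and gather integrins, proteases and immune receptors into microdomains. Cd9, Cd81 and Cd151 act mainly at the cell surface, Cd63 sits mainly in late endosomes, lysosomes and the vesicles released from them, and Cd37 and Cd53 are largely restricted to leukocytes. Cd9 and Cd63 are known as genes that microglia near Aβ plaques express at a higher level. Tspan14 belongs to the group of tetraspanins that accompany the protease Adam10.

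The family is recognised by a pair of cysteine codons followed by a glycine codon in the part of the gene that encodes the large extracellular loop. That stretch is shown for each member because it is what the 10 genes share in sequence. The match was searched for between codons 140 and 160 of the GENCODE M21 transcript, and each gene held a match there. Cd9, Cd63 and Cd81 also held a further match outside this window, at codons 76, 72 and 227. In the following coding stretches of 33 bases the 3 codons are in capitals.
Cd9: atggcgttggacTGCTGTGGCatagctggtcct
Cd81: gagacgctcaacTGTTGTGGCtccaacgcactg
Cd63: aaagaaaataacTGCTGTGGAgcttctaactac
Cd82: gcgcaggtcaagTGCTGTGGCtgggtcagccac
Cd53: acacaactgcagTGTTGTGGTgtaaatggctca
Cd37: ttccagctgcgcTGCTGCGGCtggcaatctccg
Cd151: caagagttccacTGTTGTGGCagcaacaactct
Tspan3: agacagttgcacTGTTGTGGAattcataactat
Tspan4: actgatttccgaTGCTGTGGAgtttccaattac
Tspan14: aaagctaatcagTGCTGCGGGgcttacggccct
The bases around the capitals differed from gene to gene, and in all 10 genes the stretch was split between 2 exons. For Cd9 the match began at codon 150 of 226 and for Cd63 at codon 145 of 238.

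Between 18644807 and 25882122 reads were counted per library. The shallowest library, outside graft 1, was given a quality weight of 0.448 (0.799 to 1.76 in the others), and on the first principal component of all genes it lay at 117 where the other outside libraries lay between 5.34 and 17.5. It was kept, and in edgeR and voomWithQualityWeights with otherwise unchanged settings no member passed either threshold with or without it. The sort was for microglia, and the summed CPM (read counts scaled to a common library size with TMM) of 8 microglial genes was 42354 to 49081 inside and 48179 to 54087 outside the graft. Neutrophil genes, which this gate should leave out, summed to 647 to 13601 CPM inside and to 0.311 to 290 CPM outside. These sums are set beside the members further on.

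None of the 10 tetraspanin genes passed an adjusted p of 0.01 or 0.05 in edgeR's quasi-likelihood test or in limma's voomWithQualityWeights. Of all genes tested, 0% passed 0.01 and 0.0983% passed 0.05 in edgeR, and 0.0197% and 0.492% did in voomWithQualityWeights. At an unadjusted p below 0.05, 4 members were counted in each test, Cd9 and Cd63 with higher and Cd37 and Tspan14 with lower means inside the graft, where 9.55% of all genes were below it in edgeR and 12.2% in voomWithQualityWeights. In 2 of the 10 genes the libraries of the groups did not overlap, with Cd63 higher in every inside library and Cd37 lower, beside 10.7% of all genes tested (5.65% higher and 5.02% lower). The median log2 fold change of the 10 members was -0.058 in edgeR, beside -0.0064 over all genes tested. In voomWithQualityWeights it was -0.0086, beside -0.0128 over all genes tested. Fold changes below are those of the inside group over the outside group, from edgeR unless another test is named, and adjusted p values are Benjamini-Hochberg values over all 15257 genes.

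**Figure D1:**
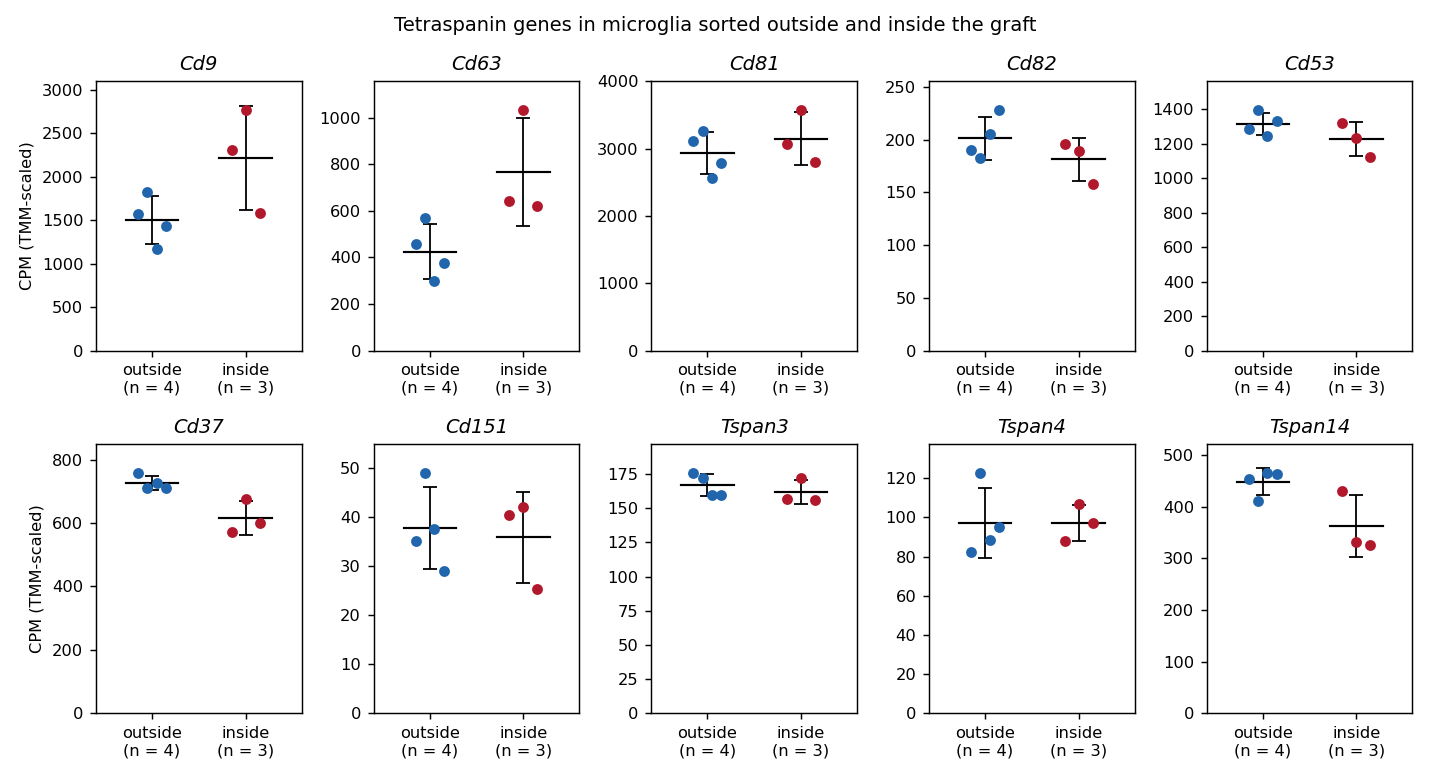
Level of each of the 10 tetraspanin genes in CPM (TMM-scaled, linear axes from 0), with 1 point per library, outside the graft in blue (n = 4) and inside in red (n = 3), and a bar at the mean with the SD. The inside points of Cd63 lie above all outside points and those of Cd37 below them, whereas the groups overlap for the other 8 genes.

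Cd63 had the smallest p of the members. Its level was 644, 1033 and 621 CPM inside the graft and 460, 570, 297 and 375 CPM outside it. The lowest inside library was thus above the highest outside library, and inside graft 2 stood well above the other inside libraries. The means were 766 ± 231 CPM inside (SD, n = 3) and 425 ± 117 CPM outside (SD, n = 4). This was a log2 fold change of 0.85 (SE 0.24, 95% interval 0.33 to 1.37), or 1.80-fold, with an unadjusted p of 0.00471 and an adjusted p of 0.206 in edgeR. In voomWithQualityWeights the log2 fold change was 0.97 (SE 0.22) with an adjusted p of 0.0794. Without inside graft 2 the edgeR value was 0.57, and without outside graft 2 the adjusted p in voomWithQualityWeights was 0.0464. The DESeq2 Wald test called the gene at 0.01 (adjusted p = 0.00828), as it did 1.52% of all genes. With all 7 libraries it also passed 0.05 in edgeR without a filter on low counts (adjusted p = 0.0174) and in voomWithQualityWeights with at least 10 counts in every library (adjusted p = 0.0255). Cd63 lies at chr10:128900989-128912822 on the plus strand of GRCm38, and no exon of another gene overlaps its exons. Its processed pseudogene Cd63-ps was counted apart, at 0.828% to 0.952% of the reads of both together, and adding those reads gave the same log2 fold change of 0.85.

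Cd9, the other member known from plaque-associated microglia, had 2309, 2771 and 1584 CPM inside the graft. Outside it had 1577, 1823, 1167 and 1438 CPM. Inside graft 1 and 2 were above every outside library, but inside graft 3 was below outside graft 2, so the groups overlapped. The means were 2221 ± 599 CPM (SD, n = 3) and 1501 ± 274 CPM (SD, n = 4). The log2 fold change was 0.57 (SE 0.19, 95% interval 0.14 to 0.99), or 1.48-fold, with an adjusted p of 0.330 in edgeR. It was 0.64 (SE 0.18) with an adjusted p of 0.147 in voomWithQualityWeights. Cd9 lies at chr6:125460266-125494791 on the minus strand, where 218 of its 2044 exonic bases are shared with Gm26728 on the other strand. Reads were counted without regard to strand, and those in shared bases are dropped under the standard settings. Cd9 without inside graft 2 gave 0.38, again the smallest value when single libraries were left out.

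Cd9 and Cd63 varied together from library to library. Over the 7 libraries the Pearson correlation of their log2 CPM was 0.934, and 0.872 after each group's mean was subtracted. Cd81 followed the same libraries within the groups, with 0.947 for Cd9 and 0.971 for Cd63. These values are descriptions over few points that share library, depth and normalization. Inside graft 2 was the highest inside library and outside graft 2 the highest outside library for all 3 genes.

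The windows before the RefSeq start sites of Cd9 and Cd63 (GRCm38.p6) are shown because these members moved together. Cd81 also moved with both within the groups, and its window is not printed. Each run holds 215 bases and ends 36 bases before the start, outside the GENCODE M21 exons of the gene. The Cd9 window lies ahead of the whole gene, whereas the Cd63 window lies inside it, between exons of longer annotated transcripts that begin upstream. Capitals mark matches on either strand to the GC-box core GGGCGG, to GAGGAA, a core bound by ETS factors such as PU.1, to the E-box CACGTG or to the AP-1 site TGACTCA.
Cd9, chr6:125494796-125495010, minus strand: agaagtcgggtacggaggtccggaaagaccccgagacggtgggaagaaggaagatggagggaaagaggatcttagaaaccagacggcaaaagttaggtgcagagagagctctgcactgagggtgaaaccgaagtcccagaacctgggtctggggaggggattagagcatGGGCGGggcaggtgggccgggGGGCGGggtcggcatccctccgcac
Cd63, chr10:128909095-128909309, plus strand: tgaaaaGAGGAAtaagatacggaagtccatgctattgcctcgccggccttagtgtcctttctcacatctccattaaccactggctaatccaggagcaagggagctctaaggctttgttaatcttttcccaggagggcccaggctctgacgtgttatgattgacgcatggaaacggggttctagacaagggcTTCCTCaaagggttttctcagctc
The Cd9 window held 2 matches to GGGCGG and none to the other motifs, and the Cd63 window held 2 matches to GAGGAA (1 written as its reverse complement) and none to the others. The full windows of 300 bases had a GC content of 61.3% and 49.3%, and no motif was shared between them. In 32851 such windows over all genes, GGGCGG was found in 35.7%, GAGGAA in 28.3%, CACGTG in 7.15% and TGACTCA in 5.2%. The 10 members had 16 windows in that table, of which 8, 6, 2 and 1 held these motifs in the same order. A match in letters does not show that a factor binds.

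Cd81, a partner of Cd9 at the cell surface, was the most abundant member. Its level was 3066, 3576 and 2801 CPM inside the graft and 3112, 3259, 2570 and 2792 CPM outside it, and the groups overlapped across most of their range. The log2 fold change was 0.10 (95% interval -0.15 to 0.35) with an adjusted p of 0.862. Cd151, which binds laminin-binding integrins, had the lowest level of the 10. It was at 40.5, 42.0 and 25.2 CPM inside and at 35.2, 49.0, 37.6 and 29.0 CPM outside, with an adjusted p of 0.964. Both genes share some exonic bases with a gene on the other strand, 104 of 2879 for Cd81 (R74862) and 193 of 2741 for Cd151 (Gm10575). Cd82, known as a suppressor of metastasis, had 196, 190 and 158 CPM inside and 190, 182, 205 and 228 CPM outside. Its log2 fold change was -0.15 (95% interval -0.43 to 0.12, adjusted p = 0.790).

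Cd37 and Cd53, the members largely restricted to leukocytes, had lower means inside the graft. Cd37 was at 570, 675 and 600 CPM inside and at 759, 711, 727 and 709 CPM outside. Every inside library was below every outside library, and the outside libraries lay close together. The means were 615 ± 54.2 CPM (SD, n = 3) and 727 ± 22.9 CPM (SD, n = 4), a log2 fold change of -0.24 (SE 0.10, 95% interval -0.46 to -0.018) with an adjusted p of 0.471 in edgeR and 0.266 in voomWithQualityWeights. Cd53 was at 1321, 1232 and 1125 CPM inside and at 1287, 1395, 1242 and 1334 CPM outside, so that inside graft 1 lay within the outside range. The log2 fold change of Cd53 was -0.10 (95% interval -0.31 to 0.11, adjusted p = 0.830). In bulk RNA of this kind, fewer cells of a type and less RNA per cell cannot be told apart.

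Tspan14, the companion of Adam10, was at 431, 331 and 326 CPM inside the graft and at 453, 410, 466 and 464 CPM outside it. Inside graft 2 and 3 were below all outside libraries, but inside graft 1 was above outside graft 2. The means were 362.7 ± 59.2 CPM (SD, n = 3) and 448 ± 26.02 CPM (SD, n = 4), a log2 fold change of -0.31 (SE 0.13, 95% interval -0.59 to -0.025) with an adjusted p of 0.466 in edgeR and 0.273 in voomWithQualityWeights. Inside graft 1 also had the highest Adam10 level (460 CPM, against 283 to 406 CPM in the other libraries), and Adam10 itself had a log2 fold change of -0.039 (adjusted p = 0.978).

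Tspan3 and Tspan4, members of the family with less studied roles, had nearly equal means in both groups. Tspan3 lay between 156 and 172 CPM inside and between 160 and 176 CPM outside, and Tspan4 between 87.9 and 107 CPM inside and between 82.5 and 123 CPM outside. Their log2 fold changes were -0.044 and -0.0014, with adjusted p values of 0.947 and 0.999. The sign of these values, and that of Cd151, changed between the settings tried, Tspan4 already with another scaling (0.015 with RLE factors). Of the exonic bases of Tspan4, 292 of 2178 are shared with Chid1 on the other strand.

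**Figure D2:**
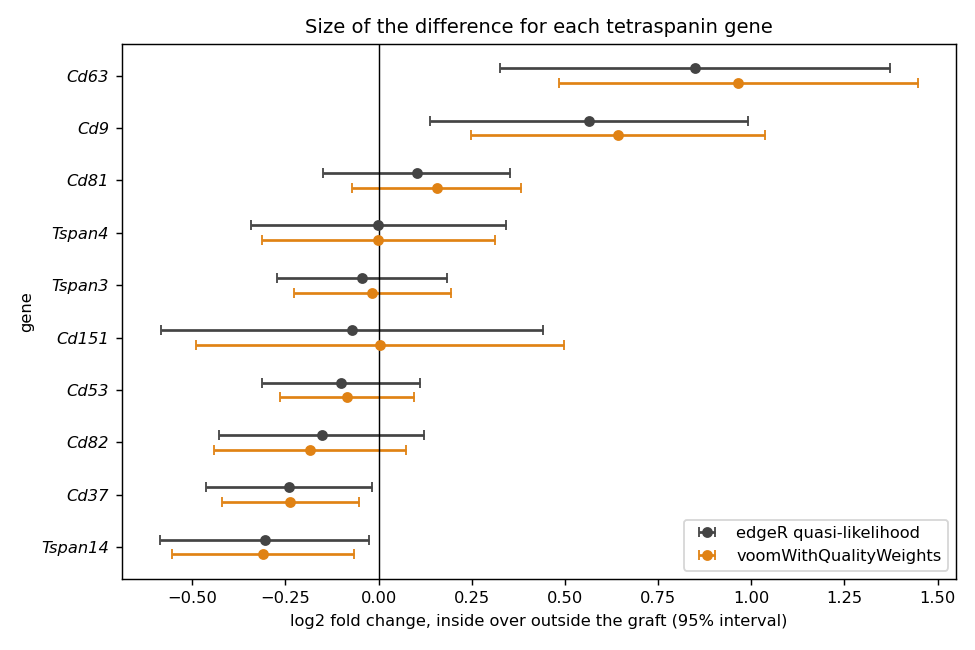
Inside over outside log2 fold change of the 10 genes, with 95% intervals from edgeR and from voomWithQualityWeights (points). The intervals of Cd63 and Cd9 lie above 0 and those of Cd37 and Tspan14 below 0 in both tests before adjustment, and no gene passed an adjusted p of 0.05.

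To compare levels between genes, CPM was divided by the exonic length in kilobases. This length covers every annotated exon of a gene and can exceed that of the transcript expressed. For Cd63 it was 3682 bases, beside 714 coding bases in the transcript shown above. The order of the genes therefore depends on the annotation. Outside the graft the order by CPM per kilobase was Cd81 (1019), Cd53 (755), Cd9 (735), Cd37 (206), Tspan14 (169), Cd63 (116), Cd82 (67.0), Tspan4 (44.6), Tspan3 (39.0) and Cd151 (13.8). The ranges of Cd53 and Cd9, of Tspan14 and Cd63 and of Tspan4 and Tspan3 overlapped between libraries, whereas the other neighbours did not. Cd81, Cd9 and Cd53 ranked 33, 37 and 47 among the 15257 genes on this scale over all libraries, and Cd151 ranked 3431. Inside the graft Cd9 (1087) stood beside Cd81 (1093) with overlapping ranges, and Cd63 (208) came before Cd37 (175) and Tspan14 (137), again with overlapping ranges between neighbours.

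As a share of the summed CPM per kilobase of the 10 genes, Cd9 took 31.3%, 33.3% and 25.8% inside the graft and 23.7%, 25.4%, 20.4% and 22.8% outside it. The inside libraries of Cd9 all lay above the outside libraries on this scale, with inside graft 3 just above outside graft 2. Cd63 took 4.85% to 6.89% inside and 2.88% to 4.41% outside. Cd53 took 17.4% to 21.5% inside and 22.7% to 25.5% outside, and Cd37 4.49% to 5.68% and 5.75% to 7.37%. A share falls when another gene of the 10 is higher, and its size depends on the annotated lengths. These values are descriptions with no test. The summed level was 3559 ± 538 CPM per kilobase inside (SD, n = 3) and 3164 ± 299 outside (SD, n = 4), so the groups differed by less than the inside SD.

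**Figure D3:**
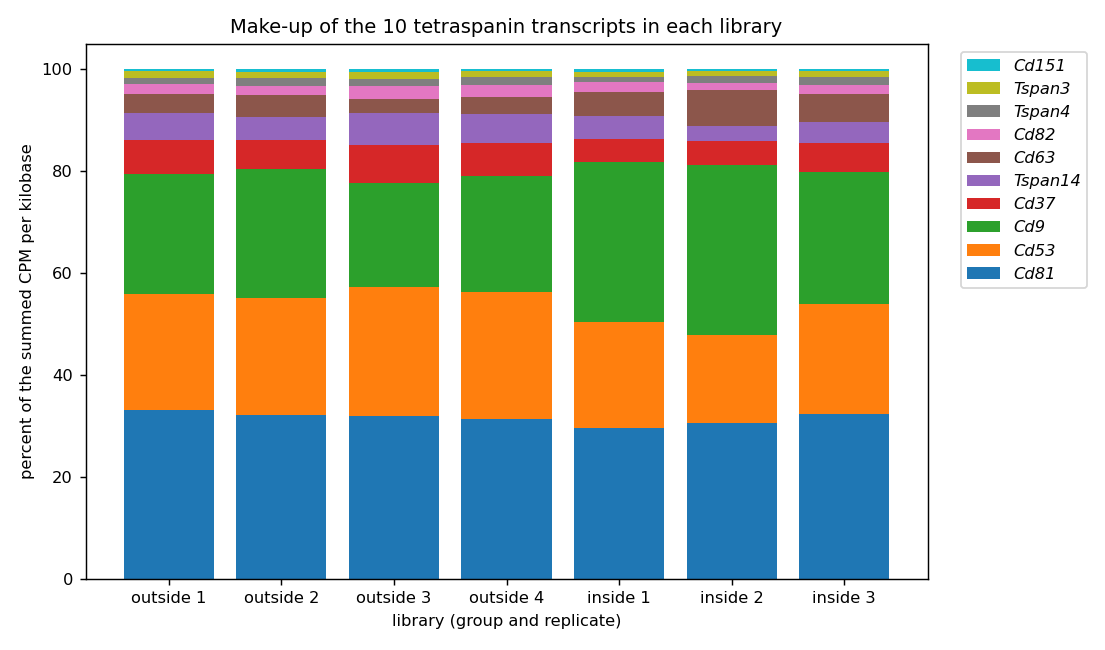
Share of each tetraspanin gene in the summed CPM per kilobase of the 10 genes (percent, stacked to 100), with 1 bar per library. Cd81, Cd9 and Cd53 make up most of every bar, and Cd9 takes 25.8% to 33.3% inside the graft and 20.4% to 25.4% outside it.

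Marker genes of other myeloid cells moved with the graft. All 6 neutrophil genes tested, 7 of 8 monocyte genes and all 7 tested genes of border-associated macrophages (of 8 listed) had higher mean levels inside the graft, and none of them passed an adjusted p of 0.05 in either test. The most abundant gene of each list was S100a8 (208 to 4072 CPM inside and 0.0888 to 80.2 CPM outside), Chil3 (67.5 to 1187 CPM inside and 0 to 14.95 CPM outside) and Mrc1 (7.80 to 61.2 CPM inside and 4.18 to 14.2 CPM outside). Summed monocyte markers were 82.0 to 1370 CPM inside and 6.98 to 34.1 CPM outside, and those of border-associated macrophages 16.8 to 125 and 5.95 to 17.8 CPM. Chil3 made up most of each monocyte sum inside the graft (67.5 of 82.0 CPM in inside graft 2). Of the 8 monocyte genes, 2, Chil3 among them, had every inside library above every outside library, beside 5.65% of all genes tested. Over the inside libraries Chil3 ran in the same order as S100a8. Lymphocyte genes summed to at most 13.3 CPM inside, with none of the 7 passing the filter, Nkg7 the most abundant, and Ms4a1 at 0 in all libraries.

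Among the 3 inside libraries Cd63 and Cd9 ran in the opposite order to the neutrophil sums. Inside graft 2 had the highest Cd63 and Cd9 of all libraries and the lowest sums of the inside libraries, 647 CPM for neutrophils, 82.0 CPM for monocytes and 16.8 CPM for border-associated macrophages. Summed neutrophil markers were highest in inside graft 3, which had the lowest inside levels of Cd9, Cd63, Cd81, Cd82, Cd53, Cd151, Tspan3 and Tspan14. The part of other myeloid cells in the differences of Cd63, Cd9, Cd37 and Tspan14 was not tested.

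**Figure D4:**
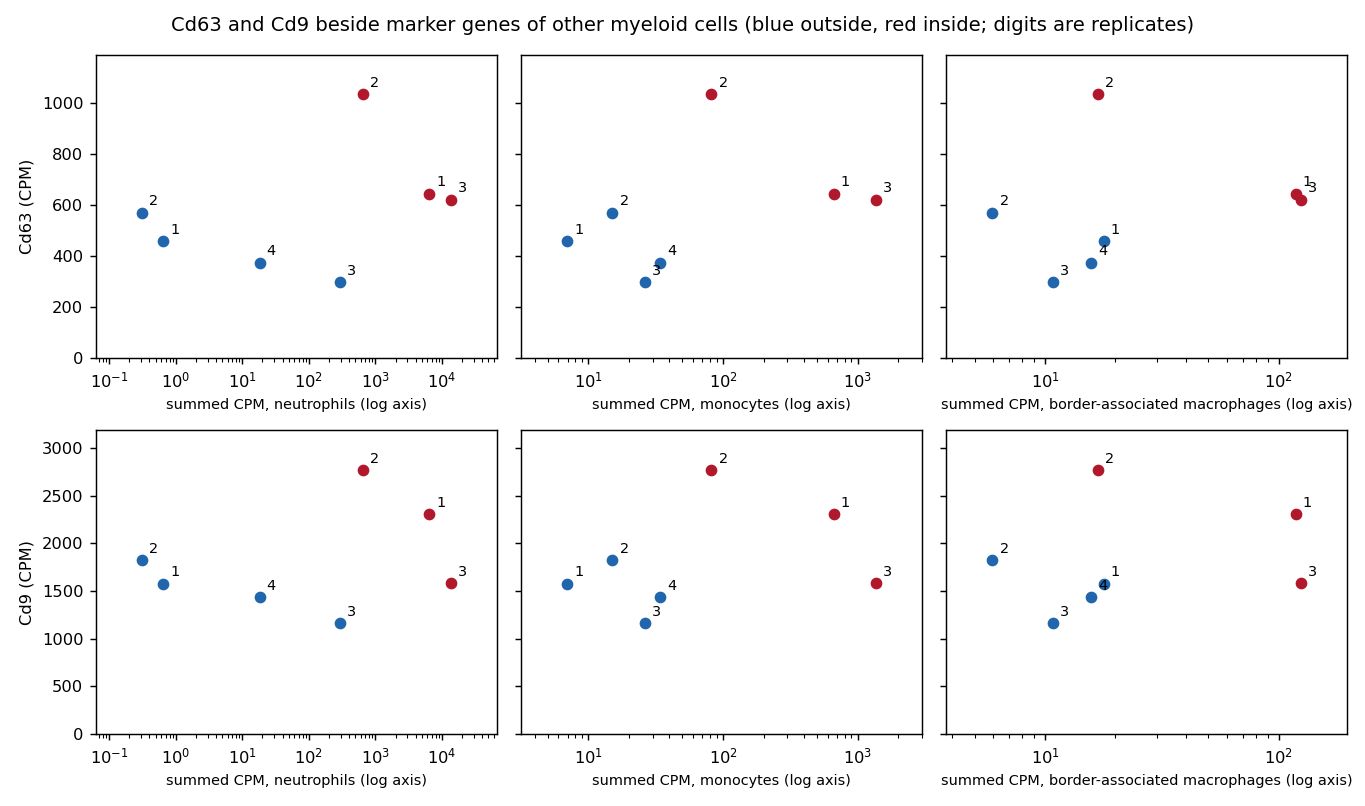
CPM of Cd63 (top) and Cd9 (bottom) against the summed CPM of marker genes of neutrophils, monocytes and border-associated macrophages (log axes), with 1 point per library, outside the graft in blue and inside in red, numbered by replicate. Inside graft 2 has the highest Cd63 and Cd9 and the lowest marker sums of the 3 inside libraries.

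The 8 microglial genes all had lower mean levels inside the graft, with a median log2 fold change of -0.17 and no adjusted p below 0.05. The sorted markers were present in both groups, with Itgam (CD11b) at 335 and 325 CPM and Ptprc (CD45) at 544 and 425 CPM on average inside and outside (adjusted p = 0.962 and 0.337). Oligodendrocyte markers (Cnp the most abundant) summed to 155 to 160 CPM inside and 155 to 165 CPM outside. Astrocyte markers, led by Slc1a3, summed to 249 to 299 CPM inside and 327 to 351 CPM outside, with Gja1 at 0 in all libraries. Slc1a3 alone was at 245 to 286 CPM inside and 320 to 346 CPM outside. Of the 6 tested astrocyte genes, 3 had higher and 3 had lower means inside. Endothelial markers, led by Pecam1, summed to 19.1 to 25.6 CPM and 28.05 to 46.0 CPM, with Tek and Esam at 0. Pecam1 alone was at 14.5 to 24.8 CPM inside and 27.2 to 41.4 CPM outside. Neuronal markers, led by Snap25, stayed at or below 10.3 CPM in every library.

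Other tetraspanins and related proteins were examined as a list of 21 genes. Of these, 13 were tested, 4 with higher and 9 with lower means inside the graft, and Tspan10 and Upk1a were at 0 in all libraries. The median log2 fold change was -0.30 in edgeR but 0.032 in voomWithQualityWeights, so its sign depended on the test. In edgeR none passed an adjusted p of 0.05 and 6 had an unadjusted p below it, as did 9.55% of all genes tested. Upk1b, a uroplakin-type tetraspanin, fell at 0.05 in voomWithQualityWeights, where 0.059% of all genes fell. It was at 108, 78.2 and 72.0 CPM inside and at 139, 158, 139 and 172 CPM outside, with a log2 fold change of -0.83 (SE 0.16, adjusted p = 0.0485) in that test and -0.82 (adjusted p = 0.0907) in edgeR. The inside libraries of Upk1b all lay below the outside libraries. Without outside graft 3 its adjusted p was 0.180 in voomWithQualityWeights, whereas it was 0.000219 in DESeq2 and 0.00434 in edgeR without a filter.

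Tspan18 showed a difference in the same direction. It was at 43.5, 36.7 and 36.6 CPM inside the graft and at 69.3, 57.6, 55.9 and 71.1 CPM outside it, with a log2 fold change of -0.71 (adjusted p = 0.104 in edgeR and 0.0892 in voomWithQualityWeights, against 0.00193 in DESeq2 and 0.030 in edgeR without a filter). Tspan33, of the Adam10-associated group, had a log2 fold change of -0.44 (adjusted p = 0.366) and Tspan13 of -0.30 (adjusted p = 0.398), and both had every inside library below every outside library. Tspan32, a tetraspanin of blood cells, had the opposite sign with 0.45 (adjusted p = 0.447). In all, 5 of the 13 genes (Tspan7 was the fifth) lay below in every inside library and none above. Of all genes tested, 5.02% lay below and 5.65% above in this way.

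**Figure D5:**
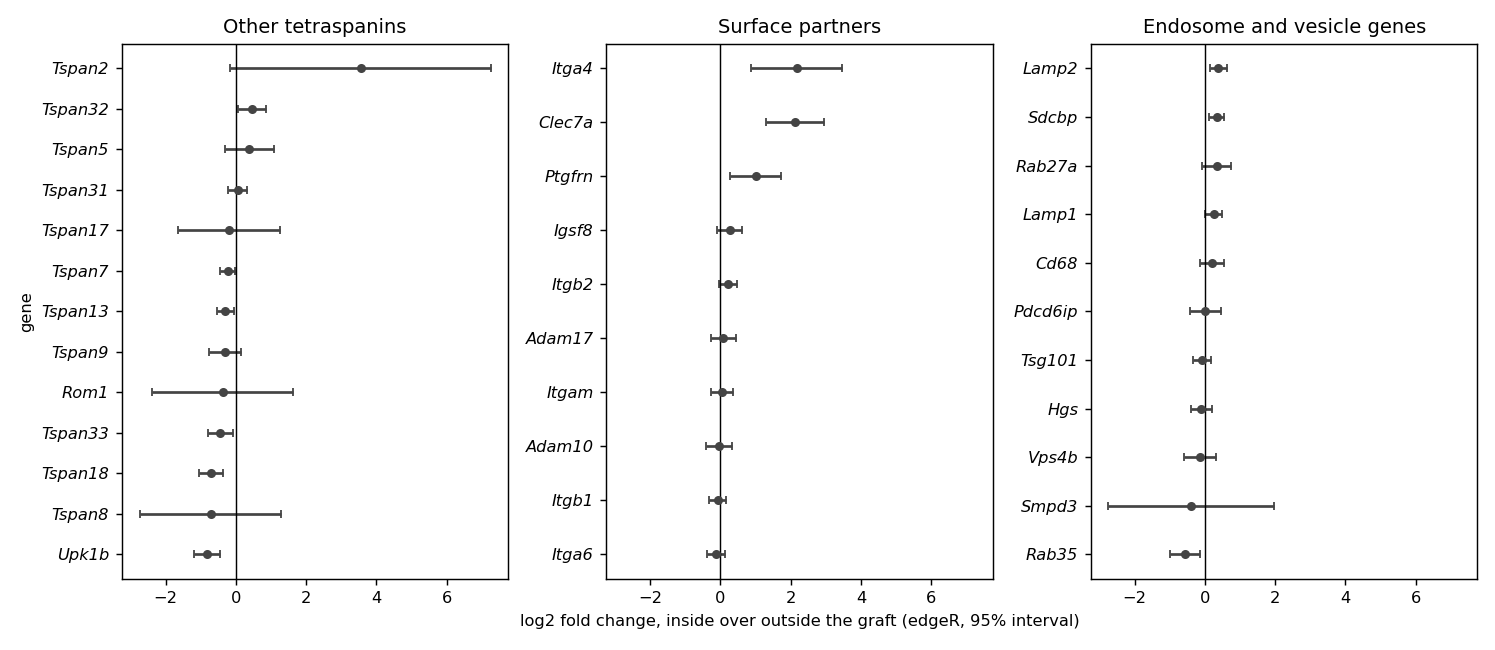
Inside over outside log2 fold change of the tested genes of 3 related lists (other tetraspanins, surface partners, and endosome and vesicle genes) from edgeR, with 95% intervals. Before adjustment, the intervals of Itga4, Clec7a, Ptgfrn, Tspan32, Lamp2 and Sdcbp lie above 0. Those of Upk1b, Tspan18, Rab35, Tspan33, Tspan13 and Tspan7 lie below 0. Tspan2, the highest point, has an interval that spans 0.

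Among 11 surface partners, 10 were tested, 7 with higher and 3 with lower means inside the graft. Their median log2 fold change was 0.15 in edgeR and 0.088 in voomWithQualityWeights. Clec7a, the dectin-1 receptor and a known partner of Cd37 and Cd63, rose at 0.05 in voomWithQualityWeights, where 0.433% of all genes rose. It was at 255, 398 and 154 CPM inside and at 52.3, 102, 34.0 and 58.4 CPM outside, and the groups did not overlap. The log2 fold change was 2.27 (SE 0.35, adjusted p = 0.0335), and 2.13 in edgeR (adjusted p = 0.0682). Inside graft 2 was again the highest library. Leaving out outside graft 3 raised its voomWithQualityWeights adjusted p to 0.180, and in DESeq2 the adjusted p was 0.00223. Itga4, an integrin chain of leukocytes, was at 7.997, 3.32 and 9.30 CPM inside and at 0.444 to 2.24 CPM outside. Its lowest inside level was in inside graft 2. The log2 fold change of Itga4 was 2.17, with an adjusted p of 0.183 in edgeR and 0.0175 in DESeq2. Of the immunoglobulin-type partners of Cd9 and Cd81, Ptgfrn was at 1.01 (adjusted p = 0.297) and Igsf8 at 0.26 (adjusted p = 0.683). Itgb2, the beta chain shared by leukocyte integrins, was at 0.22 (adjusted p = 0.601).

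The late endosome, lysosome and vesicle genes that share compartments with Cd63 numbered 12, of which 11 were tested, 6 with higher and 5 with lower means inside the graft (median log2 fold change 0.0059 in edgeR, -0.10 in voomWithQualityWeights), and none passed an adjusted p of 0.05 in either test. Lamp2, a main lysosomal membrane protein, was at 1103, 1004 and 912 CPM inside and at 839, 780, 701 and 775 CPM outside, with a log2 fold change of 0.38 (adjusted p = 0.213 in edgeR and 0.0663 in voomWithQualityWeights). Every inside library of Lamp2 lay above every outside library. The same held for Sdcbp, the syntenin that binds Cd63, with 0.33 (adjusted p = 0.263). In DESeq2 the adjusted p was 0.0154 for Lamp2 and 0.0153 for Sdcbp, where 2.76% of all genes passed 0.05. In voomWithQualityWeights without a filter it was 0.0181 and 0.0499, where 0.762% passed. Lamp1 was at 0.25 (adjusted p = 0.531), and of the vesicle-release GTPases Rab27a was at 0.33 (adjusted p = 0.623) and Rab35 at -0.56 (adjusted p = 0.344).

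Across all genes tested, those whose log2 CPM was most like that of Cd63 over the 7 libraries were Cd52 (Pearson r = 0.994), Eef1a1 (0.993), Cd63-ps (0.993), Csf2ra (0.992) and Kifc5b (0.988). Cd52, a small leukocyte surface antigen, was at 227, 393 and 200 CPM inside and at 120, 154, 67.0 and 90.7 CPM outside. Like Cd63 it was highest in inside graft 2 and lowest in outside graft 3. Its log2 fold change was 1.34 (adjusted p = 0.108) in edgeR and 1.51 (adjusted p = 0.0411) in voomWithQualityWeights. Eef1a1, a translation elongation factor, and Csf2ra, a chain of the GM-CSF receptor, had log2 fold changes of 0.47 and 0.64 (adjusted p = 0.291 and 0.208). Kifc5b averaged 2.07 CPM inside and 0.807 CPM outside, with 9 to 78 counts per library. These correlations were picked as the highest among many genes and are descriptions.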

How the data were processed

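The authors reverse-transcribed 300 pg of RNA per sample (SMART-Seq v4, 13 PCR cycles), made Nextera XT libraries, aligned the reads with STAR 2.7.2a to GENCODE M21 (GRCm38) and counted them with featureCounts 1.6.2. The deposited values are raw counts for each gene name and the exonic gene length in bases. Counting ignored strand, so antisense reads add to a gene where no exon of another gene overlaps. The standard settings named by the authors drop reads that overlap exons of several genes, which lowers genes that share exonic bases. They also drop reads with several alignments, which lowers genes with near-identical copies. The reads carry no molecular identifiers, so PCR copies cannot be told from separate molecules.

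From these counts, genes passing filterByExpr were scaled with TMM and tested in all 7 libraries with edgeR 4.0.16 (glmQLFTest) and, after the study's methods, limma 3.58.1 (voomWithQualityWeights), in R 4.3.3, at adjusted p thresholds of 0.01 and 0.05. DESeq2 1.42.0, other scalings and filters, a replicate block and each library left out were alternatives. After seeing the data, Cd63-ps was added to Cd63, and inside graft 1 and 3 were left out together. The scripts were tested on simulated data. Members, lists and tests were chosen with earlier results of these data known. Named genes were the 10 members, in each list of related genes the 5 with the smallest edgeR p and any with an adjusted p below 0.05, the 5 most like the member with the smallest p, the most abundant gene of each cell type list (1 is not reported here), and Itgam and Ptprc. Adam10, Tspan7, Tspan10, Upk1a and the markers listed at 0 were named after their values were seen. All 10 members matched the RefSeq promoter table.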

Additional observations from a re-analysis of the deposited data

How the results depend on the processing

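Cd9, Cd63, Cd81, Cd82, Cd53, Cd37 and Tspan14 kept their direction in both tests under every alternative tried. The count of members past 0.01 was 0 except for 1 with the DESeq2 Wald test (Cd63, log2 fold change 0.86, adjusted p = 0.00828), where 1.52% of all genes passed, and 2 in voomWithQualityWeights with the replicate number as a block (Cd63 0.86, adjusted p = 0.00303, and Cd9 0.54, adjusted p = 0.00969), where 0.517% of all genes passed. At 0.05, Cd63 was also called in edgeR without a filter (adjusted p = 0.0174, 1.24% of all genes) and in voomWithQualityWeights with at least 10 counts in every library (0.0255, 1.75%) or without outside graft 2 (0.0464, 0.341%). The replicate block left out outside graft 4. The labels do not say whether libraries with the same number came from the same animal. The correlations of their deviations were -0.043, 0.090 and 0.067, which from so few libraries cannot decide whether they were paired. Inside graft 2 and 3 correlated best with their own number and inside graft 1 did not. With the block edgeR called none. The Cd63 log2 fold change ran from 0.57 to 1.28 in edgeR and from 0.69 to 1.44 in voomWithQualityWeights. Its adjusted p ran from 0.0174 to 0.458 in edgeR and from 0.00303 to 0.387 in voomWithQualityWeights, beside 0.00828 in DESeq2. Without 1 library the log2 fold change ran from 0.57 to 1.02 and from 0.69 to 1.11. That of Cd9 ran from 0.38 to 0.89 and from 0.44 to 0.98. The highest values came with inside graft 2 as the only inside library, which has the highest Cd63 and Cd9 of all libraries, so that the choice of this library fixed the rise; the 2 genes passed 0.05 there in voomWithQualityWeights, which supports nothing further.

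The sign turned only for Tspan4, Cd151 and Tspan3, whose values all lay near 0, and the cause was not tested. Tspan4 turned to 0.015 (edgeR) and 0.016 (voomWithQualityWeights) with RLE factors, to 0.0094 and 0.015 with at least 10 counts in every library, to 0.0077 with the replicate block in edgeR, to 0.015 in DESeq2, to 0.0050 without quality weights, and to 0.14 and 0.15 with inside graft 2 alone; without 1 library it lay between -0.073 and 0.13 in edgeR and between -0.11 and 0.083 in voomWithQualityWeights. Cd151 turned in voomWithQualityWeights to -0.0022 with upper-quartile factors, -0.030 with library size only, -0.037 without a filter, -0.25 with the replicate block and -0.078 without quality weights, and in edgeR to 0.16 with inside graft 2 alone; without 1 library it lay between -0.20 and 0.13 in edgeR and between -0.21 and 0.20 in voomWithQualityWeights. Tspan3 turned to 0.049 in edgeR and 0.076 in voomWithQualityWeights with inside graft 2 alone, and without 1 library lay between -0.091 and -0.017 and between -0.063 and 0.0061. The number of all genes below 0.05 ran from 0 to 366 in edgeR (15 with all libraries and settings as chosen) and was 420 in DESeq2. It ran from 1 to 265 in voomWithQualityWeights (75).

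With 3 and 4 libraries, the 95% intervals of the members still spanned from 0.33 to 1.37 for Cd63 and from -0.15 to 0.35 for Cd81 in edgeR, and a member that missed the threshold is not shown to be equal between the groups.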
